A study of Mus musculus with 8 samples.

Results

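Long intergenic noncoding RNAs (lincRNAs) were measured by 16251 of the 55681 probes on a mouse expression array. Members were all non-control probes whose annotation contains the word lincRNA, with 1 spot each. They read 4622 strands of 3555 genomic intervals (build mm9), and 1067 of these intervals were probed on both strands. An interval strand carried 1 to 10 probes, with a median of 3, and 118 probes had no mapped position. Only 12 interval strands carry a gene name in the annotation (BRN1-A, H19, HOTAIR, KCNQ1ot1, NEAT1, NEAT2, NRON, PINC, TSIX, TUG1, XIST and lincP21), and the others are known here by position alone.

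The study placed miR-125b in 2 mouse pre-B leukaemia lines to look for genes that this microRNA controls. 70Z/3 is a pre-B lymphoblast line and 18-81 is a pre-B line transformed by Abelson murine leukaemia virus. Each line received a synthetic duplex at 10 nM by lipid transfection, either pre-miR-125b or the control miR-Neg, with new medium after 8 h and RNA collected at 48 h. The 4 groups had 2 arrays each, from 2 independent experiments. Untransfected cells were not analysed here, so all groups share the transfection, and each line stands for itself alone. With 2 arrays a group, p-values measure only the spread between these samples. Fewer cells with a transcript and less transcript per cell cannot be told apart in such bulk RNA.

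LincRNAs are transcribed from DNA between protein-coding genes, and like messenger RNAs many are spliced and polyadenylated. Some have well-studied tasks: XIST coats and silences one X chromosome in female cells, NEAT1 is the scaffold of nuclear paraspeckles, and NEAT2, better known as Malat1, is an abundant RNA of nuclear speckles. A microRNA binds its targets through its seed, near its 5′ end, and binding to a long noncoding RNA is possible as to a messenger RNA.

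The microRNA is shown with seed bases 2 to 8 in capitals, as RefSeq gives the mature form (GRCm38.p6).
miR-125b-5p: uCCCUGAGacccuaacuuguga
The next probes carry the largest differences between the lines and the replicate pattern of NEAT1 and NEAT2. Each is a member of 60 bases. Capitals mark the longest run shared with a probe of another annotation, which for NEAT2 is the whole probe, identical to one annotated Malat1.
XIST: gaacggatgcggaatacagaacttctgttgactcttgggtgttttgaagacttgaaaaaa
NEAT1: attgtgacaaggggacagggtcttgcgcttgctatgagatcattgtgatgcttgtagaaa
NEAT2: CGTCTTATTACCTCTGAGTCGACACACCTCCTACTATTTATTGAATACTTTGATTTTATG
chr10:83181374-83249774 forward: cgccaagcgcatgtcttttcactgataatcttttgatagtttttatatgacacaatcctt
chr8:119092623-119094219 reverse: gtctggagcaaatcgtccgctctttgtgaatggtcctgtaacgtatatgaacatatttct
chr16:8748982-8757165 reverse: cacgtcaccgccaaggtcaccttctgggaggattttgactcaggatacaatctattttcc
chr7:13533925-13544525 forward: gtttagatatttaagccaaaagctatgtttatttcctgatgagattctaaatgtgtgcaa

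Most lincRNA probes gave no signal above background in either line. Feature Extraction, the software that read the arrays, called between 3039 and 4612 lincRNA probes well above background on an array (18.7 to 28.4%). On both arrays of a group, this held for 2840 probes in 70Z/3 with miR-Neg, 3796 in 70Z/3 with miR-125b, 3587 in 18-81 with miR-Neg and 3660 in 18-81 with miR-125b. The lowest group holds the dimmest array, its replicate 2. Intensity at the 75th percentile was 335.2 there and ranged up from 499.8 to 712.7 elsewhere. In both experiments the 70Z/3 array of the control duplex was the dimmer of its pair (509.4 against 696.7 and 335.2 against 499.8), so array brightness and duplex cannot be told apart there. Across all 8 arrays, 2530 lincRNA probes (15.6%) were always well above background and 9922 (61.1%) never were. Of the 26273 coding probes, those with a RefSeq messenger RNA accession, 49.0% always were and 34.6% never were.

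**Figure D1:**
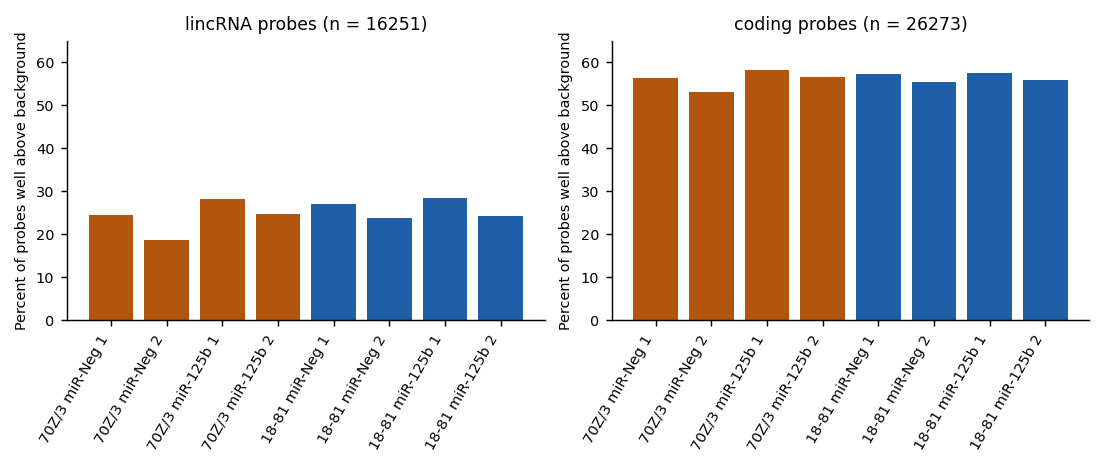
Percent of probes called well above background on each of the 8 arrays, for lincRNA probes (left) and coding probes (right), with 70Z/3 in orange and 18-81 in blue and no error bars because each bar is 1 array. LincRNA probes range from 18.7 to 28.4% and coding probes from 53.0 to 58.3%, and replicate 2 of 70Z/3 with miR-Neg is the lowest in both panels.

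Signals below are log2 intensities relative to the array's 75th percentile, so a probe at that percentile reads 0. The lincRNA probes above background on all arrays had a median mean signal of -1.13, and quartiles of -2.20 and 0.74. The median of the coding probes that met the same condition was 2.01. Probe brightness depends on the probe's sequence as well as on the RNA, so these medians describe signal and not abundance.

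Both lines read as B-cell precursors. Of 12 B-cell precursor markers on the array, 10 were detected well above background by both replicates in every group, while Rag1 and Rag2, which cut immunoglobulin genes, were not on either array of any group. T-cell markers met this condition for 4 of 8 in the 70Z/3 groups and 6 of 8 in the 18-81 groups, erythroid markers for 1 and 3 of 5, and stromal markers for 2 of 7 in each group. Myeloid markers did so for 4 of 8 in 70Z/3 with miR-Neg, 7 in 70Z/3 with miR-125b and 5 in both 18-81 groups. Summed over the list, in units of the array's 75th percentile, T-cell markers read 21.2 to 33.5 in 70Z/3 and 9.25 to 15.4 in 18-81, and erythroid markers 0.273 to 0.409 and 0.876 to 1.53. B-cell precursor markers summed to 1010 to 1970 in 70Z/3 and 798 to 924 in 18-81, and myeloid markers to 77.9 to 104 and 90.2 to 111. Stromal markers summed to 45.3 to 80.6 in 70Z/3, 54.8 to 68.0 in 18-81 with miR-Neg and 18.3 to 20.4 in 18-81 with miR-125b. Among defining markers, Cd8a, Hba-a1, Col3a1 and Dcn were not well above background on either array of any group. Others of these lists were read on both arrays of a group. Cd3d, Cd3e, Cd4 and Cd5 were so in 70Z/3 with miR-Neg and in both 18-81 groups. Epor and Gata1 were so in both 18-81 groups, and Sparc and Vim in the miR-Neg groups of both lines. The part of these markers in the differences below was not tested.

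XIST was read in 70Z/3 and not in 18-81. Its 5 probes lie side by side in chrX:100655711-100678572, reverse strand. The brightest read 3.27 and 0.98 on the 70Z/3 arrays with miR-Neg and 2.87 and 2.83 with miR-125b, while the 18-81 arrays read -6.61, -6.24, -6.69 and -6.25. All 5 probes were well above background on all 4 arrays of 70Z/3 and on none of 18-81, so the lines did not overlap. The difference for the brightest was -8.93 ± 0.46 (SE of the limma model, 4 arrays per line, adjusted p = 1.87e-06). Its fold, at least 118 higher in 70Z/3, is a bound, because the dim line was set at the lowest signal called above background. The 5 probes of TSIX, the antisense RNA of the same locus that opposes XIST, were not well above background on any array.

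BRN1-A, reverse strand of chr1:42705044-42751670, was higher in 18-81. This locus lies beside the gene of the POU factor Brn1, and its nearest coding probe was Pou3f3, the same gene under its current name, 50868 to 51053 bases away. All 4 probes passed the test, with differences from 2.56 to 4.02. The probe with the largest read -3.05 and -4.11 in 70Z/3 with miR-Neg, -3.92 and -3.27 with miR-125b, and -0.46, 1.12, -0.29 and 1.35 in 18-81. Every 18-81 array stood above every 70Z/3 array. A second probe of identical sequence, annotated 2610017I09Rik, gave the same difference of 4.02. Pou3f3 itself was not well above background on both arrays of any group and was not tested.

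TUG1, a widely expressed nuclear lincRNA, was higher in 18-81 by 0.74 to 0.96 over its 5 probes, of which 4 passed the test (adjusted p from 0.00992 to 0.0668). The median of its probes was 1.53 and 1.86 in 70Z/3 with miR-Neg, 2.07 and 1.82 with miR-125b, 2.80 and 2.94 in 18-81 with miR-Neg, and 2.84 and 2.36 with miR-125b. The groups of the lines stood apart in these medians. The call depended on single arrays: no probe passed without replicate 2 of 70Z/3 with miR-125b, and 1 passed without replicate 1 of 18-81 with miR-125b, without replicate 2 of 18-81 with miR-Neg, or when dim probes were kept in the test. All 5 passed with the experiment as a block (adjusted p from 0.00574 to 0.0265).

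NEAT1 was also higher in 18-81, by 1.68 to 2.04, and 3 of its 5 probes passed (adjusted p from 0.0255 to 0.0592). The median of its probes was 0.91 and -2.32 in 70Z/3 with miR-Neg, 0.57 and 0.35 with miR-125b, 1.79 and 2.26 in 18-81 with miR-Neg, and 1.77 and 1.14 with miR-125b. Replicate 2 of 70Z/3 with miR-Neg was far below the other arrays. Without it the difference was smaller, 1.04 to 1.22, and all 5 probes passed. None passed without either replicate of 70Z/3 with miR-125b, without replicate 1 of 18-81 with miR-125b or without replicate 2 of 18-81 with miR-Neg, and 1 passed after quantile normalization, in the authors' table or with dim probes kept. All 5 passed once experiment was fitted as a block (adjusted p from 0.0204 to 0.0471).

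The 3 probes of NEAT2 differed between the lines by 0.29 to 0.41 and none passed. Without replicate 2 of 70Z/3 with miR-Neg, the sign turned (-0.45 to -0.37). Without replicate 1 of that group the differences were 0.99 to 1.20 and all 3 passed, so these arrays give no stable direction for NEAT2.

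KCNQ1ot1, the antisense RNA of an imprinted cluster, had 2 of 5 probes above background on all arrays, with line differences of -0.61 and 0.11 that did not pass. NRON, a repressor of NFAT trafficking, had 1 such probe. No probe of HOTAIR or PINC was above background on any array. H19 was above background in 2 of 40 readings and lincP21 in 1 of 40. None of these last 4 was tested.

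**Figure D2:**
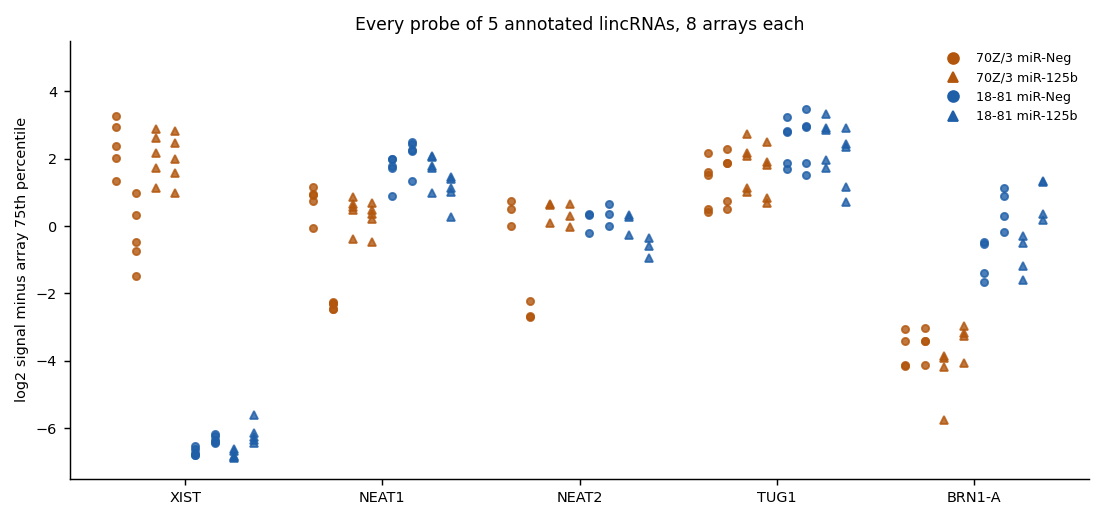
Signal of each probe of XIST, NEAT1, NEAT2, TUG1 and BRN1-A on the 8 arrays (log2, relative to the array's 75th percentile), where a column of points is 1 array and the columns run from 70Z/3 to 18-81. XIST is high in 70Z/3 and below -5 in 18-81, and the NEAT1 and NEAT2 points of replicate 2 of 70Z/3 with miR-Neg lie near -2.3 and -2.7, apart from the other arrays.

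Other probes near NEAT1 and NEAT2 on chromosome 19 were low on that array too. The annotated interval chr19:5771425-5848475 contains both genes and holds 35 member probes in 9 interval strands, of which 20 were above background on all 8 arrays. The median of those 20 was 0.73 and -2.23 in 70Z/3 with miR-Neg, 0.51 and 0.26 with miR-125b, 0.44 and 0.68 in 18-81 with miR-Neg, and 0.46 and 0.14 with miR-125b. A single array was low. Of the 2530 lincRNA probes above background on all arrays, 16 read at least 2 log2 units lower in replicate 2 than in replicate 1 of 70Z/3 with miR-Neg, and 15 of these lay in this stretch. Of the 12861 such coding probes, 28 (0.218%) fell that far. The other of the 16 lincRNA probes was a probe of chr14:62263564-62308286, reverse strand, at -2.93. Both the 20 and the 15 include the 5 probes of NEAT1 and the 3 of NEAT2, and the stretch was chosen after these values were seen. Within the stretch the change from replicate 1 to replicate 2 ran from -3.41 to 1.67. In the other groups no probe of the stretch fell that far between replicates. The drop was also read by probes outside the members: a probe annotated Malat1 with the same 60 bases as the NEAT2 probe read 0.51 and -2.39, and a separate Neat1 probe 1.07 and -1.99. XIST fell too, with probe medians of 2.38 and -0.46, whereas TUG1 did not (1.53 and 1.86). The median difference of the 20 probes after miR-125b in 70Z/3 was 0.56 with this array and -0.35 without it, and none passed the test in either case.

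Of the 4438 lincRNA probes bright enough to test, 1269 (28.6%) differed between the lines. In 18-81, 684 (15.4%) were higher and 585 (13.2%) lower, against 15.8 and 15.9% of all probes tested. Testing required both replicates of some group to read the probe well above background, and a probe passed at an adjusted p under 0.05 in the limma fit over all 25314 probes tested. Over all of them 31.7% passed, and over the 15686 coding probes 33.6%, so the pooled share of lincRNA probes lay near the background. In bands of like signal the lincRNA share was below that of coding probes, least so in the brightest, as given further below. The direction depended on the scaling, since 457 were higher and 611 lower with normexp background correction, 779 higher and 556 lower after quantile normalization. A probe that is dim in one line could enter the test through the other line alone, which favours a difference. Among the 2530 lincRNA probes above background on all arrays, tested by themselves with the other probes of that kind, 507 passed, 270 higher and 237 lower in 18-81, against 23.7% of all probes so chosen and 25.7% of the coding ones.

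In 1126 of the 1269 called probes the 4 arrays of one line did not overlap the 4 of the other, which is 25.4% of the lincRNA probes tested against 29.6% of all probes tested. They fell in 639 interval strands. Of the 291 interval strands with more than 1 called probe, 281 had a single direction, and of the 1074 with more than 1 tested probe, called or not, 735 did.

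The largest differences were of loci that one line read and the other did not. The top locus in 70Z/3 was chr10:83181374-83249774, forward strand. It read 4.86 and 4.16 in 70Z/3 with miR-Neg, 4.67 and 4.57 with miR-125b, and -6.45, -4.49, -6.55 and -6.08 in 18-81, where no array was above background. The difference was -10.46 ± 0.42 (adjusted p = 4.98e-07), at least 497-fold higher in 70Z/3, and all 5 probes of the interval passed (-10.46 to -7.31). The interval chr10:83185606-83225506 lies inside it on the same strand and gave -8.89 ± 0.23. Both probes lie 262 bases or less from a probe of the coding gene 1500009L16Rik on the same strand, which was lower in 18-81 by -7.05.

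The second locus, chr8:119092623-119094219, reverse strand, read 2.53 and 3.08 in 70Z/3 with miR-Neg, 2.37 and 3.19 with miR-125b, and -6.52, -6.16, -6.43 and -6.19 in 18-81. It was at least 145-fold higher in 70Z/3 (-9.12 ± 0.26, adjusted p = 1.43e-07). It overlaps chr8:119090566-119097735 of the same strand (-8.05). Its nearest coding probe, 5612 bases away on that strand, reads the chromodomain gene Cdyl2 and differed by -7.43. XIST followed by size. A few further loci were read in 70Z/3 alone: chr3:93564825-93576725, forward (-7.90 ± 0.27, at least 68.1-fold), chr8:26870059-26870530, forward (-7.05 ± 0.22, at least 26.2-fold) and chr14:77511189-77522852, forward (-6.59 ± 0.23, at least 23.5-fold). The last lies 342 bases from a probe of Ccdc122 on the same strand, which differed by -4.68. A probe of Bag4, 7701 bases from that of the chr8 locus on the other strand, differed by -0.70 and did not pass (adjusted p = 0.0736).

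The top locus in 18-81 was chr16:8748982-8757165, reverse strand. It read -6.29 and -5.58 in 70Z/3 with miR-Neg, -6.76 and -6.34 with miR-125b, and 1.67, 2.40, 1.66 and 2.19 in 18-81. It was at least 68.1-fold higher in 18-81 (8.22 ± 0.28, adjusted p = 2.4e-07), and both of its probes passed. The longer interval chr16:8738782-8830148 on that strand contains it, and there 3 of 6 tested probes passed, with differences from -0.82 to 7.97. The nearest coding probe, 67325 bases away, reads the ubiquitin protease gene Usp7 and differed by 0.77 (adjusted p = 0.0178).

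On chromosome 7, the single probe of chr7:13533925-13544525, forward strand, was at least 42.9-fold higher in 18-81 (7.54 ± 0.30). It read -6.25, -5.59, -6.74 and -6.33 in 70Z/3 and 1.09, 1.72, 0.79 and 1.66 in 18-81. Its nearest coding probe, 17995 bases away on that strand, reads the zinc-finger gene Zfp324 and moved the other way (-1.55, adjusted p = 0.00255). Both probes of chr7:50509139-50526856, forward, also passed (5.89 and 7.35, the larger at least 32.1-fold). A probe of the zinc-finger gene Zfp715, on the other strand at 29127 bases, differed by -0.60 and did not pass (adjusted p = 0.0888).

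Within chr9:121845920-121858120, forward, 4 of 5 probes passed and the differences ran from 0.23 to 7.49, the largest at least 49.3-fold. At chr10:72726649-72799726, reverse, 4 of 5 passed, from -0.32 to 7.03, the largest at least 53.0-fold. All 3 probes of chr6:31170350-31287353, forward, passed (4.74 to 6.57, the largest at least 24.3-fold). For chr14:43418592-43428090, forward, the difference was 7.12 ± 0.25, but its probe shares a run of bases with a probe for Gm3586, and 2 of the 4 arrays of 70Z/3 read it above background. Probes of one interval can thus differ much in their response.

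**Figure D3:**
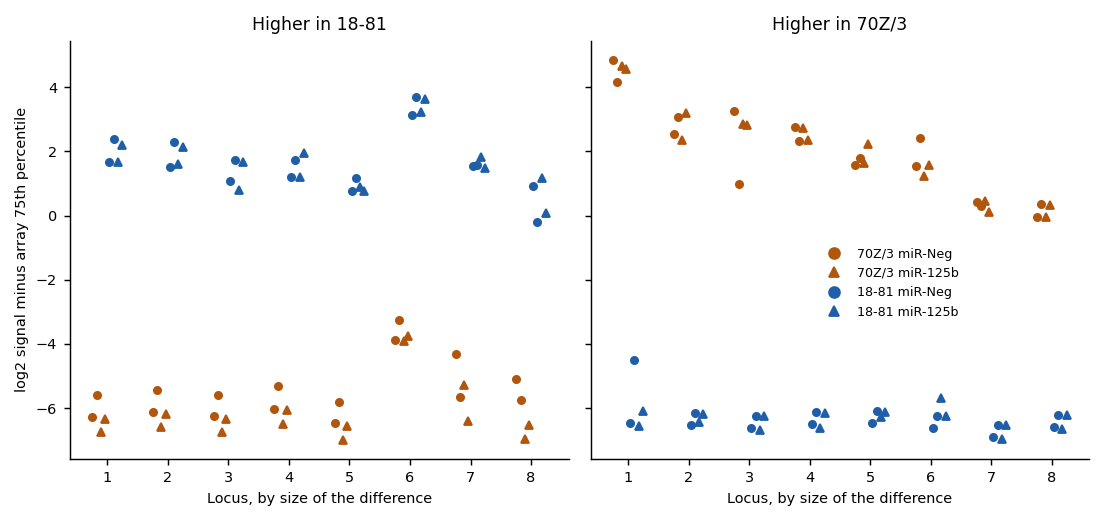
Signal on each array (log2, relative to the array's 75th percentile) for the 8 annotated intervals with the largest difference in each direction, some nested in another, numbered by the size of the difference, with circles for miR-Neg and triangles for miR-125b. In all 16 the 4 arrays of one line lie above the 4 arrays of the other, and locus 3 in the right panel is XIST, with 1 array of 70Z/3 at 0.98 and the others from 2.83 to 3.27.

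Counted by detection, 99 lincRNA probes in 63 interval strands were above background on all 4 arrays of 70Z/3 and on none of 18-81. The reverse held for 203 probes in 134 interval strands. No interval strand was in both sets. The median size of the difference was 4.04 for the first set and 2.93 for the second, and 99 and 196 of these probes passed the line test, which the selection favours. Without the dim array, replicate 2 of 70Z/3 with miR-Neg, the first count was 183. The 99 and 203 probes are 0.609 and 1.25% of all lincRNA probes. Among coding probes the counts were 548 for 70Z/3 (2.09%) and 585 for 18-81 (2.23%), so the shares of all probes were larger there. These shares include probes never above background, 61.1% of lincRNA and 34.6% of coding probes. Set against the 4438 lincRNA and 15686 coding probes tested, the order turned for 18-81 but not for 70Z/3.

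The known noncoding RNAs of a wider list gave some reference. Of 49 names, 33 were on the array, 21 were tested and 9 differed between the lines (42.9%, against 31.7% of all probes tested), 4 higher and 5 lower in 18-81. Each name was taken by its brightest probe, and 4 of the 21 were members. Apart from XIST, TUG1 and NEAT1, those past the threshold included Airn, the imprinted antisense RNA of Igf2r (2.50 higher in 18-81, adjusted p = 0.000112), Pvt1, the neighbour of Myc (1.45 higher, adjusted p = 0.0008), Peg13, an imprinted RNA (-2.52, adjusted p = 3.07e-05), and Dleu2, a host of microRNAs lost in leukaemias (-1.29, adjusted p = 0.00512). None passed after miR-125b in either line. The values of Airn, Pvt1, Peg13 and Dleu2 come from probes outside the members. A second Pvt1 probe differed by 0.22, and a member of the same sequence by 0.26.

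LincRNA probes close to a coding probe on the same strand were read more often. With the nearest coding probe under 1 kb away on the same strand, 88 of 194 lincRNA probes (45.4%) were above background on all arrays, against 27 of 254 (10.6%) when it lay on the other strand. Between 1 and 5 kb the shares were 25.6 and 12.9%, and from 5 kb on they ran from 13.5 to 16.0% on either strand. The line differences resembled those of the neighbour most at short distance. Across the 125 tested lincRNA probes under 1 kb from a tested coding probe of the same strand, the 2 differences correlated with r = 0.96. There were 50 called lincRNA probes among them, 49 of these neighbours were called as well, and 47 had the same direction. Over all 125 such probes, 48.8% of the neighbours were called. The r was 0.72 for 52 probes on opposite strands, 0.56 and 0.36 between 1 and 5 kb, and 0.14 and 0.23 between 25 and 100 kb. These are correlations across probes that share arrays and often a locus, and they describe the arrays without a test. Within 100 kb on either strand, 412 of the 494 pairs called in both (83.4%) had the same direction, against 109 of 149 (73.2%) beyond 100 kb, where on the same strand the share was 86.7%.

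**Figure D4:**
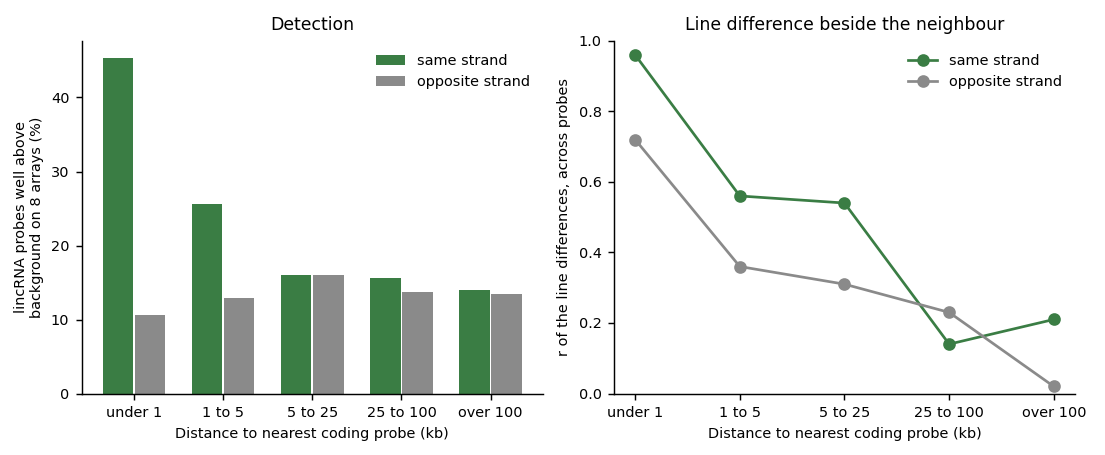
Left, percent of lincRNA probes above background on all 8 arrays by the distance to the nearest coding probe (kb) and its strand. Right, Pearson's r across probes between the line difference of a lincRNA probe and that of its nearest tested coding probe, which is 0.96 on the same strand under 1 kb, 0.14 from 25 to 100 kb and 0.21 beyond.

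Of the 1067 intervals probed on both strands, 194 had a probe above background on all arrays on both strands, 434 on 1 strand alone (207 forward and 227 reverse) and 439 on neither. Ranked by the signal of the dimmer strand, the first of these was chr12:73838608-73862621. Its forward probe read 7.49 and 8.64 in 70Z/3 with miR-Neg, 6.92 and 7.70 with miR-125b, and 6.93, 7.25, 6.99 and 7.77 in 18-81. The reverse probe read 8.23, 9.05, 7.75, 8.18, 7.78, 7.93, 7.80 and 7.65 in the same order. The next by that measure were chr17:39960567-39992817, chr5:35975265-35982561, chr5:34696192-34722842 and chr11:22681800-22707775. Of the probes shown for these 5 intervals, 1 differed between the lines, the forward probe of chr17:39960567-39992817 (-1.93 ± 0.36, adjusted p = 0.00424), and in that interval 1 of 4 forward and 1 of 5 reverse probes passed.

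Some of the brightest lincRNA probes share bases with array probes of another annotation. Of the 50 brightest members, 14 (28.0%) share a run of at least 20 bases with an array probe of another annotation, against 286 of all 16251 (1.76%) and 151 of the 4438 tested (3.4%). The brightest members with such a run are shown here, with the shared run in capitals. The first shares 52 bases with Gm12058, and at least 20 with Rps16, a ribosomal protein gene. The second shares 28 bases with the ribosomal protein gene Rps29, the third 22 with the cytokine gene Mif and the fourth 57 with Gm6780.
chr11:22681800-22707775 reverse: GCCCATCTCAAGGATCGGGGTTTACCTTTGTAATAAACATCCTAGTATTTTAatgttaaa
chr7:108209996-108216032 reverse: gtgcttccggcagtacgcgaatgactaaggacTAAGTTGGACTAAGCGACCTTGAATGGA
chr17:48068261-48087905 forward: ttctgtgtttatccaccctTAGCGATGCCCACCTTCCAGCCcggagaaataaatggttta
chr17:39982023-39983277 forward: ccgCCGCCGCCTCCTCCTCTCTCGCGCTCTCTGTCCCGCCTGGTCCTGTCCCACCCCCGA

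These probes were bright on every array. The chr11 probe read 9.47 and 10.00 in 70Z/3 with miR-Neg, 9.10 and 9.49 with miR-125b, and 9.05, 9.39, 8.98 and 9.39 in 18-81. The Rps29-like probe read from 8.73 to 9.54 over the 8 arrays, the Mif-like one from 8.60 to 9.34 and the last from 8.26 to 9.80. The other 2 of the 6 brightest, chr17:17481706-17482457 and chr14:78924115-78938125, share no such run with any probe of another annotation on the array. None of the 6 differed between the lines. In 79 cases a member has the same 60 bases as a probe annotated otherwise. In the 26 of these pairs above background on all arrays, the typical gap between the pair on an array was 0.132 log2 units (median of the pair medians), and the line differences of a pair lay within 0.419 of each other.

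No lincRNA probe responded to miR-125b past the threshold. Of 4438 tested, 0 had an adjusted p under 0.05 in limma in 70Z/3, in 18-81, on average over the lines, or for the difference of the effects, and over all probes tested it was also 0.0% in each. At an unadjusted p under 0.05 there were 344 lincRNA probes in 70Z/3 (7.75%, against 6.04% of all probes), 196 higher and 148 lower (3.0 and 3.05% of all probes). In 18-81 there were 98 (2.21% against 1.24%), 60 higher and 38 lower (0.6 and 0.644% of all probes). On average over the lines there were 156 (3.52% against 2.68%), and for the difference of the effects 265 (5.97% against 3.38%). With 2 arrays per group, the smallest adjusted p of a lincRNA probe was 0.162 in 70Z/3 and 0.101 in 18-81.

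The medians of lincRNA and coding probes lay close together after miR-125b, without a test of the gap. In 70Z/3 the median difference, miR-125b minus miR-Neg, was -0.07 for lincRNA and -0.11 for coding probes, and in 18-81 it was 0.08 and 0.03. On this scale even background readings differed. A HOTAIR probe above background on no array gave differences of -0.48 and -0.77 in 70Z/3 (replicates 1 and 2), and -0.13 and -0.08 in 18-81. The part of this offset in the differences of dim probes, here and below, was not tested. Split at the quartiles of lincRNA signal (-3.62, -2.52 and -0.69), the medians of lincRNA and coding probes in 70Z/3 were 0.06 and -0.00 in the dimmest band, -0.04 and -0.01 in the second, -0.04 and 0.02 in the third, and -0.19 and -0.15 in the brightest. In 18-81 they were 0.03 and -0.00, 0.09 and 0.03, 0.09 and -0.00, and 0.08 and 0.03. The gap between the kinds was at most 0.09 in any band, and in 18-81 the lincRNA median was the higher in all 4. The spread was larger in dim bands: in 70Z/3 the interquartile range of lincRNA probes fell from 1.07 in the dimmest to 0.57 in the brightest, and that of coding probes from 1.21 to 0.51. In the brightest band of 18-81 it was 0.31 for lincRNA and 0.17 for coding probes. Unadjusted calls in 70Z/3 followed the bands in both kinds, with 13.6% of lincRNA and 16.8% of coding probes in the dimmest and 5.05 and 3.51% in the brightest.

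**Figure D5:**
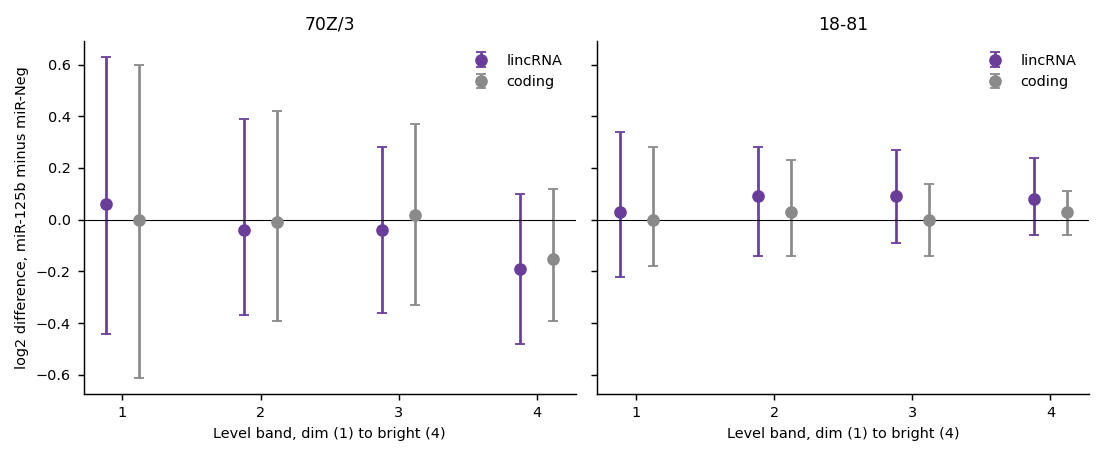
Median log2 difference between miR-125b and miR-Neg in 4 bands of mean signal, for lincRNA probes (purple) and coding probes (grey), with bars from the first to the third quartile of probes. Medians lie between -0.19 and 0.09 in all bands of both lines, and the bars are widest in the dim bands of 70Z/3.

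For the line comparison the same bands gave a different picture. In the dimmest band 42.4% of lincRNA and 67.2% of coding probes passed, in the second 23.2 and 50.9%, in the third 25.3 and 42.4%, and in the brightest 23.4 and 25.6%. The bands use the mean over both lines, so a probe on in one line alone falls into a low band.

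Several lincRNA probes entered the miR-125b test only through the group where they were high, which favours a difference. The single ones with the smallest p after miR-125b were mostly dim. In 70Z/3 the smallest was chr9:58301467-58323783, reverse strand, which read -2.63 and -2.82 with miR-Neg and -5.82 and -6.36 with miR-125b (-3.37 ± 0.32, unadjusted p = 6.39e-06, adjusted p = 0.162). It was above background on both miR-Neg arrays of 70Z/3 alone, which bounds the fold at 3.25 or more, and it was the only one of 10 probes of its interval bright enough to test. Next was chr4:3746573-3746891, forward (-3.33 ± 0.39, adjusted p = 0.228). The other 2 lower ones were chr7:3338500-3360725, reverse (-2.30 ± 0.47), and chr4:21683562-21694350, forward (-3.36 ± 0.70, adjusted p = 0.702), where replicates of miR-Neg read -0.67 and -3.20. Over the 3 tested probes of that last interval the differences in 70Z/3 ran from -3.36 to -0.47.

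Higher in 70Z/3 were chr8:124355710-124401160, forward (2.48 ± 0.31, adjusted p = 0.295), 2 probes of chr13:81773237-81783062, reverse (2.71 ± 0.43 and 2.66 ± 0.45), and chr17:88469443-88470068, forward (2.00 ± 0.35). The first chr13 probe read -6.14 and -5.45 with miR-Neg and -3.58 and -2.58 with miR-125b in 70Z/3, and 0.29, 0.09, 0.54 and -0.09 in 18-81. The 6 tested probes of that interval were between 0.83 and 2.71 higher with miR-125b in 70Z/3 and between -0.13 and 0.24 in 18-81. All 6 passed the line test, higher in 18-81. In 70Z/3 the 2 tested probes of the chr17 interval differed by -0.29 and 2.00, and the 2 of the chr8 interval by 1.57 and 2.48.

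In 18-81 the smallest p was of chr18:61798876-61807452, forward, at -3.32 ± 0.35 (unadjusted p = 1.3e-05, adjusted p = 0.101). It read -3.04 and -3.09 with miR-Neg and -6.61 and -6.16 with miR-125b. It was above background on the miR-Neg arrays of 18-81 alone and entered the test only through them. It passed after quantile normalization (adjusted p = 0.025) and in the authors' table (0.0235), where it was the single lincRNA probe to do so; the other tested probe of its interval differed by 0.33. The probe of chr17:22335458-22466521, reverse, read -3.55 and -2.80 with miR-Neg and -6.61 and -6.15 with miR-125b (-3.20 ± 0.34, adjusted p = 0.101), and shares a run with a probe for Gm4944. The other lower ones were chr2:150091945-150119782, forward (-3.00 ± 0.47), and chr17:27479404-27481770, forward (-2.17 ± 0.39). Each of the chr17 intervals had 3 tested probes. Their differences in 18-81 ran from -3.20 to 0.20 in the first and from -2.17 to -0.16 in the second.

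Higher in 18-81 with miR-125b were chr6:134838675-134847075, forward (3.77 ± 0.47, adjusted p = 0.178, at least 9.05-fold), chr2:173105462-173126187, forward, chr13:73472571-73483846, forward (2.97 ± 0.53), and chr9:121207045-121269020, forward (2.86 ± 0.53). The chr6 probe read -4.41 and -5.37 with miR-Neg and -1.57 and -0.68 with miR-125b. The chr2 probe was the only one of these 8 in 18-81 above background on all 8 arrays. It read -0.05 and 0.01 with miR-Neg and 1.83 and 2.24 with miR-125b in 18-81 (2.05 ± 0.34, unadjusted p = 0.000299, adjusted p = 0.398), while in 70Z/3 it read 0.00, 0.72, -0.29 and -0.03. The other tested probe of its interval differed by -0.10 in 18-81. Over the 3 tested probes of the chr13 interval the differences ran from -0.27 to 2.97.

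Averaged over the lines, the smallest p-values belonged to probes already named for one line, and the smallest adjusted p was 0.525. The same holds for the difference of the effects, where the smallest adjusted p was 0.626. Among the lincRNAs with a gene name, NEAT1 differed by 0.75 to 1.32 after miR-125b in 70Z/3, NEAT2 by 1.37 to 1.56 and XIST by 0.73 to 1.13. Without the low array these differences were -0.51 to -0.33, -0.10 to 0.03 and -0.41 to -0.29. TUG1 differed by 0.25 to 0.38 in 70Z/3 and by -0.39 to -0.19 in 18-81. None of these reached an unadjusted p of 0.05.

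The match to the seed, CTCAGGG, was looked for in the 60 bases of each probe, on both strands. It occurs in 82 of 16251 lincRNA probes (0.505%) and in 0.44% of all probes, and its reverse complement in 0.523 and 0.555%. The 18 tested lincRNA probes with the match had a median difference of 0.05 in 70Z/3, against -0.07 for all tested lincRNA probes, and 0.07 against 0.08 in 18-81. None passed the test. A probe covers a short part of its transcript, so these counts describe probes and not transcripts.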

How the data were processed

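Total RNA was labelled with Cy3 and hybridised to 8 one-colour Agilent arrays, which carry the same slide number in the labels, so array position and sample cannot be told apart. Per the file headers, the authors read the intensity of each spot using Agilent Feature Extraction 10.7.3.1, background-subtracted and detrended, and probe positions refer to mm9. The deposited series table holds intensity values that the authors normalized between arrays, by a method not given in the sources used here, and served as an alternative; it is linear and uncentred (column medians from 14.6 to 14.7), and correlated with the same array's scanner values at 0.9974 to 1.0. Flags for outliers and background came from the deposited files.

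Control spots and 140 to 203 outlier spots per array were left out. Processed intensity was put on the log2 scale, each array's 75th percentile was subtracted, and spots of a probe were averaged. limma 3.58.1 in R 4.3.3 fitted 4 group means to 8 arrays (prior degrees of freedom 3.9), for 25314 probes, with Benjamini-Hochberg adjustment at 0.05. The fit was tested on simulated data with noise drawn independently for each array. Such data do not cover the shared deviation of same-numbered arrays given below. The labels number replicates by 2 independent experiments, and whether these were separate cultures is not stated beyond that. Same-numbered arrays deviated together in all 6 pairs of groups (r from 0.38 to 0.64). Replicate 2 was also the dimmer array in every group, so pairing and brightness cannot be told apart there. The reported fit has no term for the experiment, and the replicate block served as an alternative.

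Named members were, by rule, the 8 largest line differences per direction (1 probe per annotated interval, arrays not overlapping; 3 of the 16 intervals lie inside another of them on the same strand), the 4 smallest p-values per direction after miR-125b (3 for the difference of effects), the 6 brightest and 5 two-strand intervals; the 12 named lincRNAs and the chromosome 19 stretch were added after values were seen. Members and lists were chosen with earlier results of these data known. A bound sets a line or group with no array above background at the higher, per array, of the probe's value and the lowest signal called well above background. Alternatives were other normalizations, filters, a trended prior, a replicate block and leaving out each array. Names of coding neighbours are those of the array.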

Additional observations from a re-analysis of the deposited data

Results flagged for a closer look

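Over the 4 arrays of a line, both duplexes together, a single array stood apart from the other 3 by more than Dixon's critical value (its gap to the nearest array over the whole range) in 12 of 93 sets of 4 arrays of the probes described above. Chance alone flags about 1 in 20. Of the 12, 10 were replicate 2 of 70Z/3 with miR-Neg, read low. For NEAT2 the ratios were 0.964, 0.956 and 0.892, for NEAT1 0.840, 0.831, 0.861 and 0.857, and for XIST 0.870, 0.835 and 0.863. The other 2 were replicate 2 of 18-81 with miR-125b, also low, for TUG1 (0.852) and NEAT2 (0.951). Probes of one gene share RNA, so these are few independent cases.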

How the results depend on the processing

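With 2 arrays per group, most calls rest on few arrays, and dim probes carry little signal over background. The 1269 lincRNA probes called between the lines became 507 when probes had to be above background on all 8 arrays, where fewer probes were tested; the other settings gave 1068 to 1828, among them 1828 with the replicate block, and 952 to 1221 with an array left out. Leaving out the probes that share a run with another gene, chosen after seeing the data, gave 1217. After miR-125b the count of 0 in 18-81 became 1 with quantile normalization and 1 in the authors' table, and with an array left out it was 0 to 1 in either line; it stayed 0 to 0 for the average and for the difference of effects. The replicate block changed no count by over 1.5 times. Among the 22 probes followed for the lines and 30 for miR-125b, it changed no other call than that of NEAT1 given above. With the looser flag for signal above background, the probes per group were 5678 and 6886 in 70Z/3 and 6577 and 6729 in 18-81 (miR-Neg and miR-125b). Probes read in 70Z/3 alone were 192 when 3 of 4 arrays sufficed, 68 with the looser flag and 99 to 183 with an array left out. Those of 18-81 were 299, 132 and 210 to 245 in the same order. The median of lincRNA minus that of coding probes was 0.05 in 70Z/3 (-0.09 with normexp, -0.03 with quantile normalization, -0.04 above background on all arrays, 0.01 to 0.09 with an array left out), 0.05 in 18-81 (0.03 with normexp, 0.08 above background on all arrays, 0.04 to 0.08) and 0.06 on average (-0.02 with normexp, 0.04 to 0.08). The sign of the line difference turned for NRON with quantile normalization (0.04) and in the authors' table (0.04), and with an array left out for NRON (-0.19 to 0.10), KCNQ1ot1 (-0.21 to 0.43) and NEAT2 (-0.45 to 1.02); the cause was not tested. Of the other values of the 22 probes for the line difference and of the 30 for miR-125b, none turned.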
